A study of Nematostella vectensis with 84 samples.

Results

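Cluster 15 of the deposited cell clustering, named "15 - Neural 2 - ilp7" by the authors, is a fine cluster of neurons of the adult sea anemone Nematostella vectensis. Its members were taken by that name in the deposited cell annotation, which gave 318 of 12352 cells, or 2.57%. They made up 41.4% of the 768 cells of the broad cluster Neural 2, whose other fine clusters were WFSa with 209 cells, an unnamed cluster 29 with 131 and PaxC with 110. The files used here hold labels per cell and no expression values, so neither the marker genes behind the name nor UMI depth per cell could be checked, and whether the reporter transcript entered the clustering is not stated.

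Cells came from heterozygotes of 3 stable transgenic lines in which Elav, FoxL2 or SoxC regulatory sequence drives KikGR, a fluorescent protein that light converts from green to red. Adults of 6 to 8 weeks were cut below the pharynx, and body wall with mesenteries was dissociated 2, 4 or 7 days after photoconversion. KikGR-positive cells were sorted 1 per well and sequenced by MARS-seq, which barcodes each well's RNA before pooling, and 44 plates gave 84 libraries. Each of 27 dissociations belongs to 1 line and 1 day and is the replicate throughout. The number of animals behind a dissociation and the number of founder animals behind a line are not given in the sources used here, so p-values measure the spread between dissociations.

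The Elav line had 4 dissociations with DMSO at 1% and 4 with no treatment stated, the FoxL2 line 5 and 5, and all 9 of the SoxC line had DMSO. The wells of 76 of 84 libraries are listed in 4 demultiplexing pools. All 9 dissociations with no treatment stated lie in 1 pool that holds no DMSO library, so the effects of pool and of DMSO cannot be told apart. A dissociation held 245 to 995 annotated cells, with a median of 363.

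Sea anemones have no brain; their neurons form a diffuse net in both cell layers and signal largely with secreted peptides. The abbreviation ilp usually stands for insulin-like peptide, a family of small secreted hormones related to insulin that act on growth and metabolism across animals, although the files do not spell the name out or pair it with a gene identifier. Elav is an RNA-binding protein typical of neurons, SoxC is an HMG-box transcription factor active in neural precursors of many animals, and FoxL2 is a forkhead transcription factor. Because photoconverted KikGR stays red while protein made later is green, a cell's colour reflects the balance of old and new reporter.

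Cluster 15 cells were several times more frequent in dissociations with no treatment stated than in those with DMSO. In the Elav line with no treatment stated, cluster 15 made up 3.48% and 4.93% of cells on day 2 and 5.30% and 3.34% on day 7. With DMSO the same line gave 0.676% on day 2, 0.678% and 0.527% on day 4, and 1.93% on day 7. All 4 Elav dissociations with no treatment stated lay above all 4 with DMSO.

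In the FoxL2 line with no treatment stated, the cluster made up 8.32%, 5.65% and 2.91% of cells on day 2 and 4.74% and 6.53% on day 4. The FoxL2 dissociations with DMSO gave 0.784% on day 2, 1.65% and 0.667% on day 4, and 1.91% and 1.17% on day 7. Here too the groups did not overlap, and the highest share of the study, 8.32%, rested on 49 cells of 589 (95% Wilson interval 6.35% to 10.8%). Intervals and count limits here cover counting error only.

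In the SoxC line, where every dissociation had DMSO, the shares ran from 0% to 1.44% with a median of 0.967%. Cluster 15 was not found in 3 of the 9 SoxC dissociations. A count of 0 allowed up to 0.489% of cells in the only one of day 2 (dissociation 1), 1.22% in dissociation 3 of day 4 and 0.971% in dissociation 7 of day 7. These limits reach into or above the range of some of the other SoxC values, so absence of the cells was not shown.

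**Figure D1:**
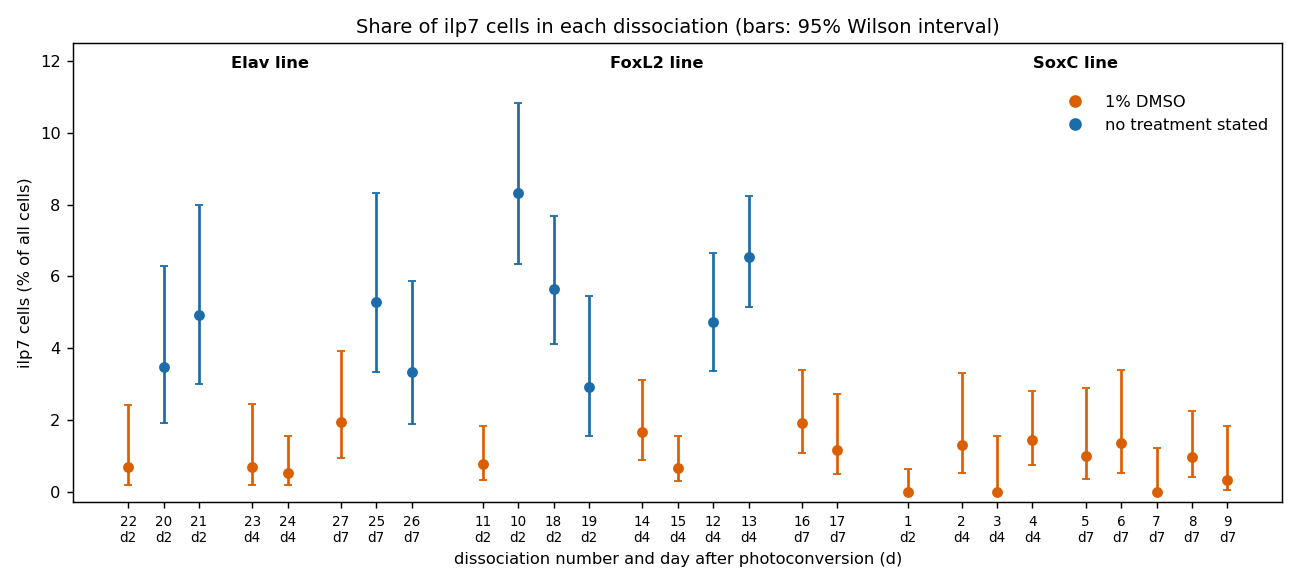
Share of cluster 15 (ilp7) cells among all annotated cells in each of the 27 dissociations, in percent, with dissociation number and day after photoconversion on the horizontal axis. Points are observed shares, bars are 95% Wilson intervals, and colour gives the treatment. The 9 dissociations with no treatment stated sit between 2.91% and 8.32%, above all 18 with DMSO, which reach 1.93%.

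When no treatment was stated, which holds for Elav and FoxL2 dissociations only, the mean share was 5.02% ± 1.71 (SD, n = 9). It was 0.910% ± 0.616 (SD, n = 18) with DMSO, where 9 of the 18 dissociations were of the SoxC line. Of the 45 fine clusters, 2 (4.44%) had treatment groups that did not overlap over the 27 dissociations, cluster 15 and "5 - Neural 1". Single libraries overlapped. All 28 libraries with no treatment stated held cluster 15 cells, at 2.40% to 9.64% of their cells, whereas 18 of 56 DMSO libraries held none and the highest reached 4.58%.

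Both treatments occurred on the same day in 4 combinations of line and day, with 5 DMSO dissociations and 9 with no treatment stated. The values with no treatment stated were higher in 4 of 4. In an exact permutation test within these combinations the difference, DMSO minus no treatment stated, was -3.91 percentage points (two-sided p = 0.00463, the smallest that 216 arrangements allow). After Benjamini-Hochberg adjustment over the 45 clusters the permutation p was 0.0417, and with that smallest p no cluster can pass unless at least 5 pass together. The adjusted threshold was passed by 5 clusters, or 11.1%, and 18 passed without adjustment. Beside cluster 15 these were Neural 1 FRPa, with a difference of -1.05 points, and 3 clusters that were higher with DMSO. The latter were Epidermis, by 7.93 points, Secretory-like NEP2/8, by 1.96, and "Mes. Ret. Muscle", by 0.94. The largest fall with DMSO was that of "5 - Neural 1", -7.60 points (exact permutation p = 0.00926, adjusted 0.0521), which did not pass. Neural 1 Class8-like differed by -3.36 points (exact permutation p = 0.0231, adjusted 0.0801). Of the 45 clusters, 23 had a lower mean with DMSO and 22 a higher one.

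In those combinations the DMSO mean was 1.14% ± 0.603 (SD, n = 5), against the 5.02% given above, a ratio of 4.40. Of the 45 clusters none had a larger ratio in that direction, and "5 - Neural 1" came next at 3.70. In the other direction, "30 - Gastrodermis" had 1.84% with DMSO against 0%, and "41 - Secretory - mucous cell" had 0.233% against 0%. Secretory-like NEP2/8 followed with 2.17% against 0.274%. Leaving out any 1 of the 14 dissociations leaves fewer arrangements and ended the adjusted call, with an adjusted permutation p of up to 0.139 and differences between -4.33 and -3.59 points. In 10 of these 14 tests the p was still the smallest that the remaining arrangements allowed.

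The difference was -2.96 points within the Elav line (exact permutation p = 0.111, the smallest of 9 arrangements) and -4.63 within the FoxL2 line (exact permutation p = 0.0833 over 24 arrangements). The difference between these values, 1.67 points, was not past the threshold (permutation p = 0.288, adjusted 0.385 over 8 such tests). All Elav cells were sorted in the same gate, so within that line the gate did not vary with treatment. Restricted to the KikGR+ gate in both lines, the difference was -3.39 points (exact permutation p = 0.00926, adjusted 0.104).

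Shares of 1 preparation sum to the whole, so a gain in 1 cluster lowers the others. Counted among neural cells alone, cluster 15 made up 8.20% ± 2.91 (SD, n = 9, range 4.87% to 13.8%) when no treatment was stated. With DMSO, where the SoxC line is included, it made up 2.82% ± 2.07 (SD, n = 18, range 0% to 6.45%). These ranges overlapped. The difference within line and day was -5.15 points (exact permutation p = 0.00926, adjusted 0.0583). A count per sorted well leaves out the 8 libraries without a well list, all with DMSO, which held 8 cluster 15 cells. Such a count does not depend on how many other wells passed the authors' filters. Per sorted well the cluster made up 4.16% ± 1.39 (SD, n = 9) with no treatment stated. With DMSO, SoxC again included, it made up 0.713% ± 0.494 (SD, n = 18). That difference was -3.39 points within line and day (exact permutation p = 0.00463, adjusted 0.0694).

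**Figure D2:**
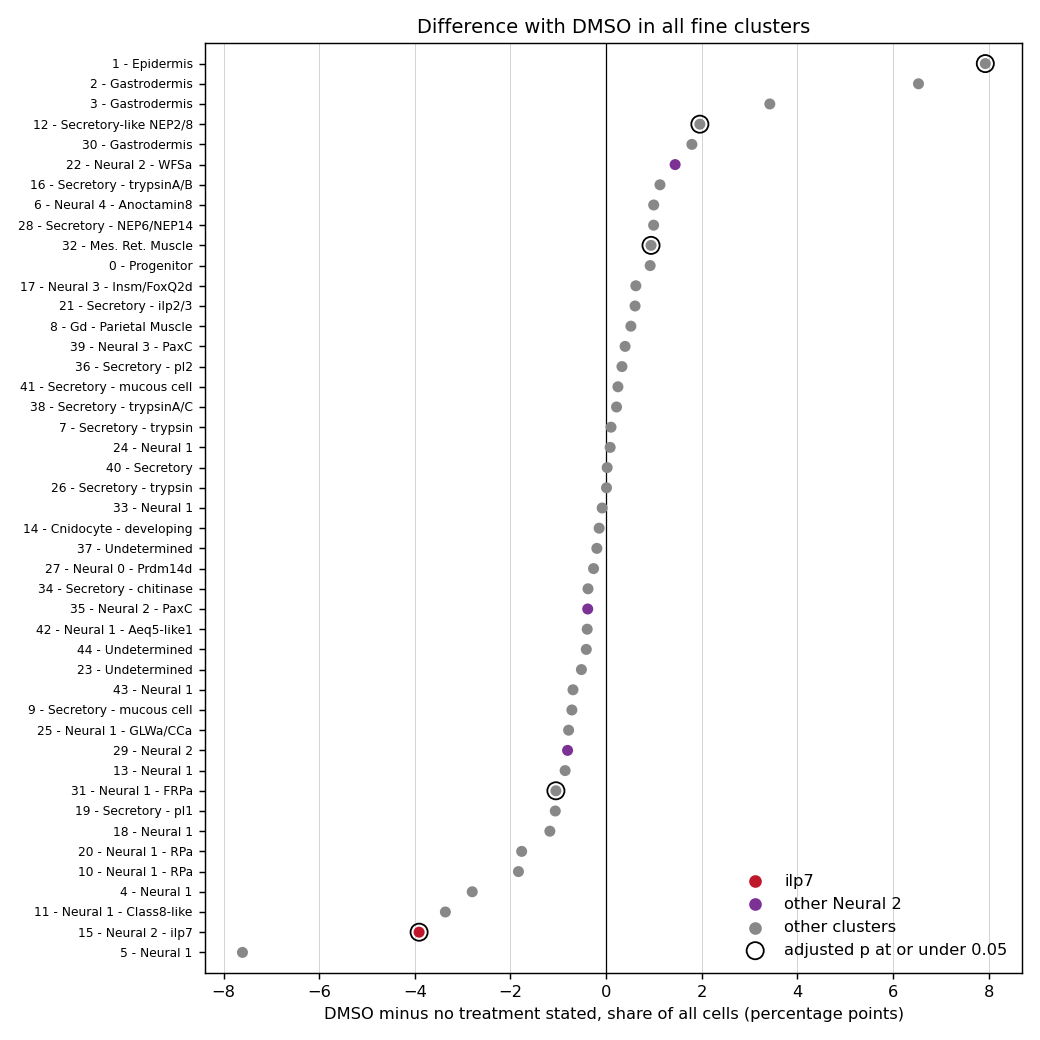
Difference in share of all cells, DMSO minus no treatment stated within line and day, in percentage points for the 45 fine clusters. Each point is 1 cluster, ringed where the adjusted p is at or under 0.05. Cluster 15 (red) lies at -3.91 points, second from the bottom, and the other Neural 2 clusters (purple) lie nearer 0.

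Among the reporter lines, FoxL2 had the highest mean share of cluster 15, 3.43% ± 2.7 (SD, n = 10). Elav followed with 2.61% ± 1.93 (SD, n = 8), and SoxC had 0.709% ± 0.622 (SD, n = 9). A permutation test over the 3 lines gave p = 0.0185 and an adjusted p of 0.0277, a threshold that 31 of 45 clusters (68.9%) passed. FoxL2 exceeded SoxC by 2.73 points (exact permutation p = 0.00554, adjusted 0.0156, a call shared by 55.6% of clusters). Elav exceeded SoxC by 1.90 points (exact permutation p = 0.0121, adjusted 0.0281, called in 62.2% of clusters). Elav and FoxL2 differed by -0.83 points, which did not pass (exact permutation p = 0.476, adjusted 0.612, called in 22.2%).

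These line differences move with treatment, because every SoxC dissociation had DMSO. Among DMSO dissociations alone, Elav had a mean of 0.952% ± 0.655 (SD, n = 4) and FoxL2 of 1.24% ± 0.538 (SD, n = 5). The ranges of these and of SoxC overlapped. FoxL2 exceeded SoxC by 0.53 points (exact permutation p = 0.139, adjusted 0.270) and Elav exceeded SoxC by 0.24 (exact permutation p = 0.527, adjusted 0.678). The test over the 3 lines then gave an adjusted permutation p of 0.401. With all treatments together, the Elav call against SoxC was also lost without dissociation 1, 3, 7, 21 or 25 (adjusted permutation p up to 0.0567), and the test over the 3 lines without dissociation 3 or 7 (up to 0.0514).

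No change in the share of cluster 15 with day passed the test used. The common slope within lines was -0.117 points per day (permutation p = 0.566, adjusted 0.929), and 0 of 45 clusters passed after adjustment, while 3 did before it. The slope was 0.150 in Elav, -0.572 in FoxL2 and 0.056 in SoxC. Treatment moves with day here as well, because the FoxL2 dissociations of day 7 all had DMSO and so did the Elav dissociations of day 4. With DMSO dissociations alone the slope was 0.128 points per day (permutation p = 0.0987, adjusted 0.821), and with line and treatment both held it was 0.092 (permutation p = 0.307, adjusted 0.900). The sign of the slope was therefore not settled.

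Within Neural 2, cluster 15 had the largest mean share of the fine clusters in FoxL2. In SoxC, where every dissociation had DMSO, it came after WFSa, whose mean was 68.4%. Shares of Neural 2 were taken in dissociations with at least 10 Neural 2 cells, which left out 3 of the SoxC line that had 9 each (0, 4 and 0 of them in cluster 15). FoxL2 had a mean of 50.4% ± 13.9 (SD, n = 10), Elav of 32.2% ± 23.5 (SD, n = 8), and SoxC of 17.3% ± 11.7 (SD, n = 6). FoxL2 exceeded SoxC by 33.1 points (exact permutation p = 0.0005, adjusted 0.00907, called in 17.9% of the clusters tested). The permutation test over the 3 lines gave an adjusted p of 0.0271, as it did at or under the threshold for 7 of 35 clusters (20%), and it passed no longer without dissociation 1, 9, 10 or 13 (adjusted p up to 0.0562).

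Elav did not pass against FoxL2 at -18.2 points (exact permutation p = 0.0582, adjusted 0.205, called in 0% of clusters) nor against SoxC at 14.9 points (exact permutation p = 0.181, adjusted 0.384, called in 8.57%). The Elav mean covers separate groups. With DMSO, Elav dissociations gave 10.5% on day 2, 10.5% and 6.98% on day 4, and 17.5% on day 7. With no treatment stated they gave 58.8% and 41.7% on day 2 and 65.4% and 45.8% on day 7, without overlap.

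In the FoxL2 line with DMSO, cluster 15 made up 50% of Neural 2 on day 2, 47.4% and 27.8% on day 4, and 42.3% and 31.3% on day 7. With no treatment stated it made up 73.1%, 58.7% and 52.9% on day 2 and 59.6% and 60.7% on day 4. These were again above all DMSO values, but the closest pair, 52.9% and 50%, rests on 9 of 17 and 5 of 10 cells. The 6 SoxC dissociations ran from 0% to 30% with a median of 20.9%. The count of 0 in the SoxC dissociation of day 2, among 21 Neural 2 cells, allowed a share of up to 14.3%.

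Among DMSO dissociations alone, FoxL2 exceeded SoxC by 22.5 points (exact permutation p = 0.00866, adjusted 0.0991) and Elav by 28.4 points (exact permutation p = 0.00794, adjusted 0.0991). The permutation test over the 3 lines passed in this subset (adjusted p = 0.0262). How many other clusters passed there was not counted, so this call cannot be read as particular to the ilp7 cluster. With both treatments together, 7 of 35 clusters (20%) passed the same test. The lowest FoxL2 share with DMSO, 27.8%, was above the highest Elav share with DMSO, 17.5%, while FoxL2 and SoxC overlapped.

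**Figure D3:**
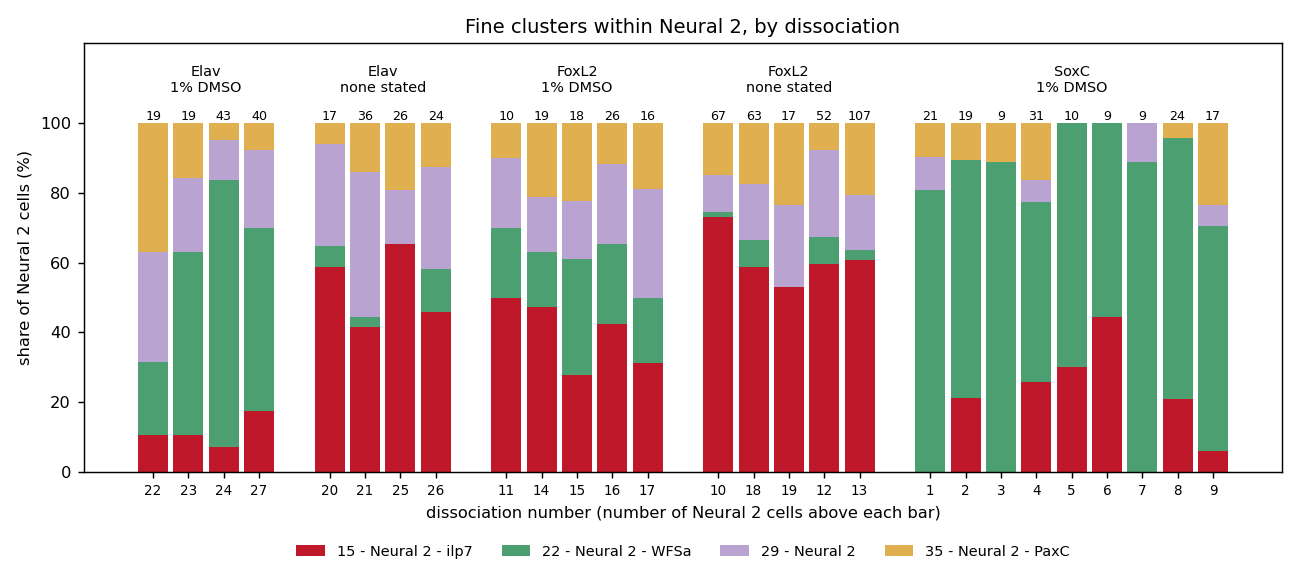
Composition of the broad cluster Neural 2 in each dissociation, as percent of its cells in the 4 fine clusters, grouped by line and treatment. Numbers above the bars are Neural 2 cells. Cluster 15 (red) takes 41.7% to 73.1% with no treatment stated, and in SoxC the WFSa cluster (green) takes most of each bar.

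Within line and day, cluster 15's share of Neural 2 differed by -27.0 points, DMSO minus no treatment stated (exact permutation p = 0.00463, adjusted 0.0361, a call made in 5 of 39 clusters, 12.8%). No Neural 2 value with DMSO reached one without it in any of the 4 combinations. The adjusted call was lost when any 1 of 11 of the 14 dissociations was left out (dissociations 11 to 15, 20 to 22 and 25 to 27), with differences between -31.9 and -23.5 points. The share of WFSa moved the other way, by 24.0 points (same p and adjusted p). Shares of the unnamed cluster 29 and of PaxC differed by -1.35 and 4.35 points (exact permutation p = 0.694 and 0.454, adjusted 0.797 and 0.629). The files do not spell out the name WFSa.

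As a share of all Elav cells, WFSa had a mean of 4.08% ± 2.14 (SD, n = 4) with DMSO, and of 0.397% ± 0.378 (SD, n = 4) otherwise. In FoxL2 the means were 0.682% ± 0.272 (SD, n = 5) and 0.369% ± 0.314 (SD, n = 5). Within line and day WFSa differed by 1.44 points (exact permutation p = 0.0324, adjusted 0.0972, which did not pass) beside the -3.91 points of cluster 15. The slope of cluster 15's share of Neural 2 with day was -0.331 points per day (permutation p = 0.863, adjusted 0.973, 0% of 39 clusters called).

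Within lines, the DMSO difference in the share of Neural 2 was -38.9 points in Elav (exact permutation p = 0.111 over 9 arrangements) and -17.9 in FoxL2 (exact permutation p = 0.0833 over 24). The difference between them was -21.0 points (permutation p = 0.0474, adjusted 0.190 over 8 tests). Of the day slopes, FoxL2 minus SoxC differed by -6.57 points per day (permutation p = 0.0435, adjusted 0.190). Neither passed after adjustment.

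The sorting gate varied in the FoxL2 line alone. All 5 dissociations with no treatment stated were sorted through an epithelial-depleted KikGR+ gate and 3 of them also through the KikGR+ gate. All 5 with DMSO went through the KikGR+ gate and 2 of them also through a gate called new. In dissociation 10 the cluster 15 share was 8.39% in the epithelial-depleted gate and 8.25% in the KikGR+ gate. In dissociation 12 it was 4.83% and 4.46%, and in dissociation 13 it was 7.32% and 2.47%. The epithelial-depleted gate was higher in 3 of 3, by 1.79 points on average (exact permutation p = 0.25, the smallest that 3 pairs allow), and without dissociation 13 by 0.26 points.

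In the new gate cluster 15 held 1 of 306 cells of dissociation 11 (0.327%, against 1.20% in its KikGR+ gate) and 1 of 351 cells of dissociation 15 (0.285%, against 1.00%). The mean difference was -0.798 points (exact permutation p = 0.5, the smallest that 2 pairs allow), and all 4 values rest on 1 to 4 cluster 15 cells. As a share of Neural 2 the new gate held 1 of 2 cells in each dissociation, too few for a comparison.

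Across FoxL2 dissociations the KikGR+ gate gave 5.06% ± 2.94 (SD, n = 3) with no treatment stated and 1.39% ± 0.377 (SD, n = 5) with DMSO. These did not overlap, since the lowest value with no treatment stated, 2.47%, lay above the highest DMSO value of 1.91%. The epithelial-depleted gate gave 5.82% ± 2.14 (SD, n = 5). Because the epithelial-depleted gate held no DMSO cells and the new gate no cells without it, these gates and treatment cannot be told apart across dissociations.

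**Figure D4:**
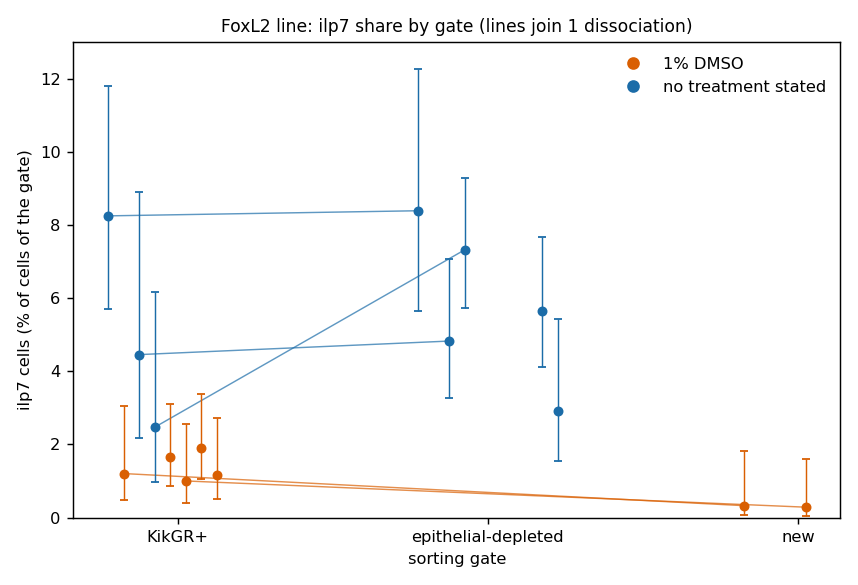
Share of cluster 15 cells by sorting gate in the FoxL2 line, in percent of the annotated cells from that gate. Each point is 1 dissociation in 1 gate with its 95% Wilson interval, lines join gates of the same dissociation, and points are shifted sideways for legibility. The KikGR+ gate alone separates DMSO (up to 1.91%) from no treatment stated (from 2.47%).

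Reporter colour was recorded for 146 of the 318 cluster 15 cells, of which 22 were green, 62 orange and 62 red. The 172 without a class comprised 154 from the epithelial-depleted gate, 16 from the KikGR+ gate and 2 from the new gate. How the authors set the colour classes is not given in the sources used here. In the Elav line 17 of 67 coloured cells were green (25.4%), 27 orange (40.3%) and 23 red (34.3%). In the SoxC line 5 of 25 were green (20.0%), 10 orange and 10 red.

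In the FoxL2 line 0 of 54 coloured cluster 15 cells were green, which allows a share of up to 5.56%, while 25 were orange and 29 red (53.7%). Of the other coloured FoxL2 cells, 249 of 2676 (9.30%) were green. Other Neural 2 cells of the line were also almost without green, at 1 of 68, and all other neural cells together had 35 of 941 (3.72%). These are counts pooled over dissociations, and no test was made on them.

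**Figure D5:**
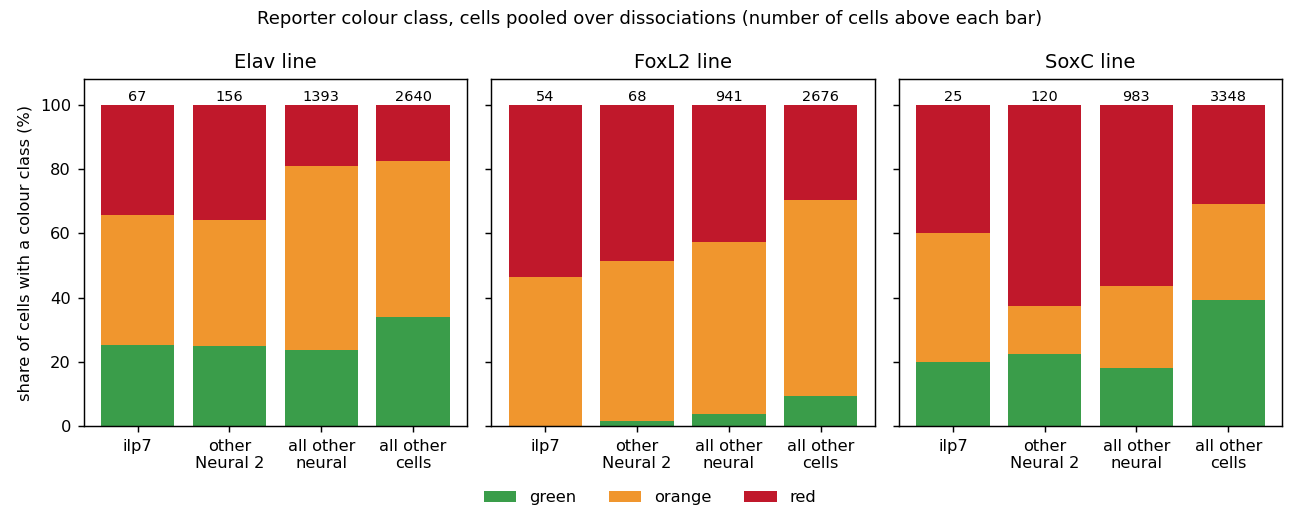
Reporter colour classes in percent of cells with a class, for cluster 15 (ilp7), the other Neural 2 cells, all other neural cells (which include them) and all other cells, by line. Numbers above the bars are cells, pooled over dissociations. In FoxL2 the cluster 15 bar has no green, and in Elav its green share of 25.4% is near the 25.0% of other Neural 2 cells.

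By day, green cluster 15 cells of the Elav line numbered 3 of 27 on day 2 (11.1%), 2 of 5 on day 4 (40%) and 12 of 35 on day 7 (34.3%). Green among the other Elav cells was 13.5%, 34.2% and 51.5% on those days. Red cluster 15 cells of the Elav line numbered 15, 0 and 8, or 55.6%, 0% and 22.9%. In FoxL2 the red share was 50% on day 2, 62.5% on day 4 and 43.8% on day 7, against 38.9%, 38% and 14.8% of the other FoxL2 cells. In SoxC green made up 1 of 12 on day 4 and 4 of 13 on day 7, and no cluster 15 cell was found on day 2. The day counts of Elav and FoxL2 come from different mixtures of treatment, so day and treatment were not separated by them.

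To compare colours within dissociations, cluster 15 was set against all other cells of the same dissociation wherever it had at least 5 coloured cells. That left 12 dissociations with 5 to 17 coloured cluster 15 cells each. In Elav the green share of cluster 15 was 30%, 0%, 29.4%, 45.5% and 28.6% in dissociations 20, 21, 25, 26 and 27. The other cells of the same dissociations had 12.3%, 7.99%, 37.2%, 44.9% and 70.6%. Cluster 15 was lower in 3 of these 5.

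In FoxL2 the green share was 0% in all 5 dissociations, beside 2.01% to 22.4% in other cells. Dissociations 10, 12, 14 and 16 had 10, 7, 9 and 11 coloured cluster 15 cells. Their other cells were 3.60%, 2.01%, 3.55% and 9.04% green. Any green cell would have put cluster 15 above the other cells there, so those zeros say little about direction. In SoxC the green share was 0% and 20.0%, beside 18.6% and 33.7%. Over the 12 dissociations green was lower in cluster 15 in 10, with a mean difference of -9.38 points. This did not pass after adjustment (permutation p = 0.0386, adjusted 0.0834 over 37 clusters, of which 8, or 21.6%, passed). It passed without dissociation 20 (-11.8 points, adjusted permutation p = 0.0102).

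The red share was higher in cluster 15 than in other cells in 10 of 12 dissociations, by 13.8 points on average (permutation p = 0.0131, adjusted 0.044), a threshold passed by 12 of 37 clusters (32.4%). In FoxL2 the red share of cluster 15 was 70%, 85.7%, 44.4%, 27.3% and 80% in dissociations 10, 12, 14, 16 and 17. The other cells of these dissociations had 60.4%, 67.1%, 35%, 14.9% and 14.6%, so all 5 pairs were higher in cluster 15 (exact permutation p = 0.0625, the smallest that 5 pairs allow, adjusted 0.188 over the 3 lines). In Elav red was higher in 4 of 5 (exact permutation p = 0.188, adjusted 0.281), with dissociation 20 at -7.18 points. In SoxC it was higher in 1 of 2 (exact permutation p = 1), with dissociation 4 at -13.3 points. The largest gap, in dissociation 17, rests on 5 coloured cells, and without that dissociation the mean over 11 was 9.11 points (adjusted permutation p = 0.0764). The adjusted call was kept only without dissociation 4, 20 or 26, and lost without any of the other 9.

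Against neural cells alone the colour differences were smaller and did not pass. Red was 6.20 points higher (permutation p = 0.327, adjusted 0.436) and the green difference was -2.85 points (permutation p = 0.368, adjusted 0.713). Against the other cells of Neural 2, over 11 dissociations, the red difference was -12.3 points (permutation p = 0.140, adjusted 0.255) and the green difference -1.29 points (permutation p = 0.719, adjusted 0.969). The red difference thus had opposite signs against all cells and against Neural 2 cells. The green share of cluster 15 had a slope of 2.76 points per day within lines (permutation p = 0.150, adjusted 0.326), and 2 of 37 clusters, 5.41%, passed.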

How the data were processed

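The authors deposited 1 annotation line per cell (library, line, day, sorting gate, medium, dissociation, fine and broad cluster, colour class). Clusters came from Seurat, per the file headers, and reads were handled with STARsolo in STAR 2.7.10b, per the submitters' processing notes. Aligner settings, cell filters, clustering settings and doublet handling are not given in the sources used here, and no expression table was used. Line, day, dissociation and medium differed from the labels in 0 cells, and 0 columns of other samples were present.

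Shares were taken per dissociation in percent. Lines and days were compared with 100000 random permutations, pairs of lines with exact permutations, DMSO by exact permutation within line and day, and colour by sign-flip permutation within dissociation, all two-sided. Benjamini-Hochberg adjustment, with a threshold of 0.05, ran over 45 clusters (over the 3 line pairs together for pairs). It ran over 35 or 39 clusters within broad clusters and over 37 for colour against all other cells. Colour against neural cells or against the same broad cluster was adjusted over fewer clusters, and colour within lines over the 3 lines. Intervals are 95% Wilson, and a count of 0 was read as up to 3 cells. Tests were checked on simulated shares, in which the DMSO test found few of the changed clusters after adjustment. Python 3.11.15, numpy 2.4.6, scipy 1.17.1 and pandas 2.3.3 were used. The cluster and lists were chosen with earlier results of these data known.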

Additional observations from a re-analysis of the deposited data

Results flagged for a closer look

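Of 21 groups of 4 to 10 dissociations checked, 1 had a value far from the rest, where chance flags about 1 in 20. Among the 4 Elav dissociations with DMSO, dissociation 27 of day 7 had a cluster 15 share of 1.93%, while the other 3 lay between 0.527% and 0.678%. It rests on 7 of 363 cells (95% Wilson interval 0.937% to 3.93%), is the only Elav DMSO dissociation of day 7, and is still below every dissociation with no treatment stated.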

How the results depend on the processing

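No paired analysis was possible because, for lines, days and DMSO, each dissociation belongs to 1 of each and replicate numbers follow accession order only. Gates and colours were compared within dissociations. The DMSO difference kept its sign in every alternative, but its adjusted permutation p passed the threshold only narrowly. It was -3.90 points with plates weighted equally (adjusted 0.0521) and -8.30 with Neural 1 left out of the total (0.0741). Per sorted well it was -3.39 (0.0694). In these settings the exact permutation p before adjustment was 0.00463, as in the main test. Their adjusted values therefore differ from the main one only through the other clusters tested. The difference was -3.39 points in the KikGR+ gate (adjusted 0.104) and -5.15 among neural cells (0.0583). The exact permutation p before adjustment was 0.00926 in each, and the gate alone left fewer arrangements. Leaving out 1 dissociation gave -4.33 to -3.59. For lines, the KikGR+ gate gave 2.06 points between the outer means (adjusted 0.0578). DMSO dissociations alone gave 0.528 for that and for FoxL2 minus SoxC and 0.244 for Elav minus SoxC, and their KikGR+ gate 0.680, 0.680 and 0.244. Elav minus SoxC among neural cells was 2.02. Leaving out 1 dissociation gave 2.18 to 3.03 over lines and for FoxL2 minus SoxC, and 1.52 to 2.20 for Elav minus SoxC.

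The day slope turned positive on the logit scale (0.050 in logits per day), with DMSO alone (0.128), in its KikGR+ gate (0.104), without a stated treatment (0.019) and with line and treatment held (0.092), and never passed. Its range without 1 dissociation was -0.212 to -0.021. Within Neural 2 the KikGR+ gate gave 28.7 points over lines and for FoxL2 minus SoxC (adjusted 0.147 and 0.0715) and -28.9 for DMSO (0.198). DMSO alone gave 22.5 for FoxL2 minus SoxC and -5.88 for Elav minus SoxC. The slope there turned to 0.118 (KikGR+ gate), 0.090 (minimum of 5 cells), 0.572 (DMSO alone) and 0.786 (no treatment stated). Without 1 dissociation it was -1.51 to 0.469, the line values were 29.7 to 35.7, and DMSO was -31.9 to -23.5.

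For green, a minimum of 3 coloured cells gave -8.45 points (adjusted 0.0439, n = 19) and of 10 gave -1.69 (n = 6). Leaving out 1 dissociation gave -11.8 to -6.41. Red in place of green, 1 of 3 classes beside orange, gave 13.8, 6.20 against neural cells and a day slope of -3.69. For the new gate the share within Neural 2 gave 12.5 points, from 2 pairs. The cause of these shifts was not tested. With 5 to 17 coloured cells or 9 to 107 Neural 2 cells per dissociation, counting error is wide, and no depth per cell was available. The alternatives on neural cells, sorted wells, dissociations with no treatment stated alone and red against other neural or Neural 2 cells were chosen after seeing the data.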
